A study of Mus musculus with 4 samples.

Results

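The expression of 10 genes that shape mitochondria was compared between adult wild-type and *Ctcf* heterozygous mouse hearts. The genes were *Mfn1*, *Mfn2*, *Opa1*, *Oma1*, *Dnm1l*, *Fis1*, *Mff*, *Immt*, *Chchd3* and *Pink1*. They were chosen by name for their roles in mitochondrial fusion, fission, cristae and quality control, with earlier results of these data known. Counts of them beside shares of all genes are therefore descriptions. Each name matched 1 row of the 55401 genes in the expression table. The data were 4 heart RNA-seq libraries from mice aged 8 weeks, 2 wild-type and 2 heterozygous for *Ctcf*, with replicates numbered 1 and 2 in each genotype. The heterozygous mice were C57BL/6N animals with a CTCF-R567W allele made by CRISPR/Cas9 editing present throughout the body, and CTCF is a zinc finger protein that binds DNA and organises chromatin loops. All hearts came from mice of the same age, and the study's methods describe 1 set of housing conditions for its mice in general. The methods do not say whether hearts were pooled or how many founder animals the line had. P-values therefore measure the spread between these libraries, each of which is called a heart here. Replicates are given in the order 1 and 2 throughout.

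Mitochondria constantly join and divide. The mitofusins MFN1 and MFN2 join the outer membranes of neighbouring mitochondria, and OPA1 joins the inner membranes and also keeps cristae, the folds of the inner membrane, narrow at their necks. Division is carried out by DRP1, the dynamin-like protein encoded by *Dnm1l*, which is brought to the outer membrane by receptors such as MFF. The MICOS complex, built around mitofilin (encoded by *Immt*) with MIC19 (encoded by *Chchd3*) among its subunits, holds the cristae junctions together. PINK1 is a kinase that marks damaged mitochondria for removal, and OMA1 is a protease that cuts OPA1 under stress. In heart muscle, where mitochondria fill much of the cell, loss of the mitofusins or of DRP1 is known to lead to cardiomyopathy.

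Across the 10 genes, *Pink1* and *Chchd3* lay furthest below the wild-type level in heterozygous hearts, whereas *Immt*, the partner of *Chchd3* in MICOS, had nearly equal means in both genotypes. The heterozygous mean was 65.3% of the wild-type mean for *Pink1*, 76.1% for *Chchd3* and 101.0% for *Immt*. *Mfn1* was close to *Chchd3*, at 76.6%, but its genotypes overlapped. None of the 10 genes passed the test across all genes. The promoter windows of *Pink1*, *Chchd3* and *Immt* are shown here because these genes mark both ends of the range of differences. Each window runs from 250 bases before to 50 bases after the start of transcription, in the direction of the gene, and is taken from RefSeq on the GRCm38.p6 build. Capitals mark matches, on either strand, to short motifs that were searched by letter.
Pink1: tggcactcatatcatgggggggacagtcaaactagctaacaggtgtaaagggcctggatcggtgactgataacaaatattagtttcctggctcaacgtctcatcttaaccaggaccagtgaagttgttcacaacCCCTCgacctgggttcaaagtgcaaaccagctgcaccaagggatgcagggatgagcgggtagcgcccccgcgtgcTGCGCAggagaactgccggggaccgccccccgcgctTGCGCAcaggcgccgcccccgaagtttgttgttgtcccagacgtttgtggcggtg
Chchd3: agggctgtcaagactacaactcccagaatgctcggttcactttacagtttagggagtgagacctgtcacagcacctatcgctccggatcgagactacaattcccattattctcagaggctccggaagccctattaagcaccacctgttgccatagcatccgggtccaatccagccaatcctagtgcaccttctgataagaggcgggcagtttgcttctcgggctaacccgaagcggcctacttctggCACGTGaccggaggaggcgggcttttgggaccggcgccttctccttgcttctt
Immt: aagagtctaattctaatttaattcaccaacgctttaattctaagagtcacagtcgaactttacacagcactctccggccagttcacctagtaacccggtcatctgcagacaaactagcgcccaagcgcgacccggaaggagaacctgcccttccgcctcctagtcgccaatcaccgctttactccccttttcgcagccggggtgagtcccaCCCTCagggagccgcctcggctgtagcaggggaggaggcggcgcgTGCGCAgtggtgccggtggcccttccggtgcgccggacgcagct

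The *Pink1* window lies at chr4:138326247-138326546 on the minus strand, the *Chchd3* window at chr6:33060211-33060510 on the minus strand and the *Immt* window at chr6:71831070-71831369 on the plus strand. The *Pink1* window held the core pentamer of the CTCF motif, CCCTC, once and the core of the motif of NRF1, TGCGCA, at 2 places. NRF1 is a transcription factor of nuclear genes for mitochondria. The *Immt* window held each of these motifs once, and the *Chchd3* window held neither but had 1 E-box, CACGTG. Over one window for each of the 10 genes, CCCTC was found in 8, against 65.95% of 32851 windows of the same length, and TGCGCA in 4, against 7.76%. A longer stretch of the CTCF consensus, CAGNNGGC, was found in 3 (*Mfn1*, *Oma1* and *Opa1*), against 25.85%. The half-site of the oestrogen-related receptors, AAGGTCA, was found in 0 of the 10, against 4.72%, the E-box in 1, against 7.15%, and the YY1 motif, AANATGGC, in 2 (*Mff* and *Mfn1*), against 6.05%. A match is a description of the letters in these windows, and binding was not measured in these hearts.

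The values are TPM, which count the transcripts of a gene per unit of length as a share of the library and so can be compared between genes. The total is the same in every library, and the read depth behind it is unknown, so no counting error can be given. Genes of the mitochondrial genome took between 61.1% and 68.6% of the total, and nuclear gene models nearly identical to them took another 14.1% to 19.8%, with both heterozygous shares of the latter above both wild-type shares. All remaining genes held 21.2% and 24.0% in wild-type and 14.2% and 17.6% in heterozygous hearts. The libraries were therefore divided by median-of-ratios factors (wild-type 1.09 and 1.26, heterozygous 0.818 and 0.903), and the results are called scaled TPM. Fold changes were fitted with limma on log2(scaled TPM + 1), a scale that understates the change of low genes. The fit covered the 10036 genes whose mean TPM reached 1, and adjusted p values are Benjamini-Hochberg values over all of these. For each gene limma draws the variance toward the trend over all tested genes. Its standard errors and p-values therefore do not rest on that gene's own values alone. Over all tested genes the fitted log2 values had a median of -0.0047, and the middle 50% lay between -0.17 and 0.17. *Ctcf* itself had 6.12 and 6.02 scaled TPM in wild-type and 7.51 and 5.76 in heterozygous hearts, so the genotypes overlapped, and TPM do not tell the alleles apart. Cardiomyocyte markers were abundant, with *Myh6* between 7466 and 11559 TPM, and the atrial markers *Nppa*, *Myl7*, *Sln* and *Myl4* were present in every library at a summed 806 and 2354 scaled TPM in wild-type and 1918 and 3281 in heterozygous hearts. Fewer cells of a type and less RNA per cell cannot be told apart in whole tissue.

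With a call set at an adjusted p below 0.05 together with a change of more than 1.5-fold, limma called 0 of the 10 genes, and over all tested genes it called 0.0199% lower and 0% higher. One of the 10, *Pink1*, had an unadjusted p under 0.05 and was lower, as did 5.71% of all tested genes, and 0 of the 10 were higher with such a p, as were 6.49% of all genes. The fitted value was negative for 9 of the 10, against 50.7% of all genes. For 6 of the 10 (*Mfn2*, *Opa1*, *Dnm1l*, *Mff*, *Chchd3* and *Pink1*) each heterozygous heart was lower than each wild-type heart, against 23.3% of all tested genes, and each was higher for 0, against 23.7%. The median log2 fold change of the 10 genes was -0.21. It was -0.10 without wild-type replicate 1. The adjusted p values of the 10 genes ran from 0.372 to 0.992, and the 95% confidence interval of the fold change included no change for 9 of them.

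**Figure D1:**
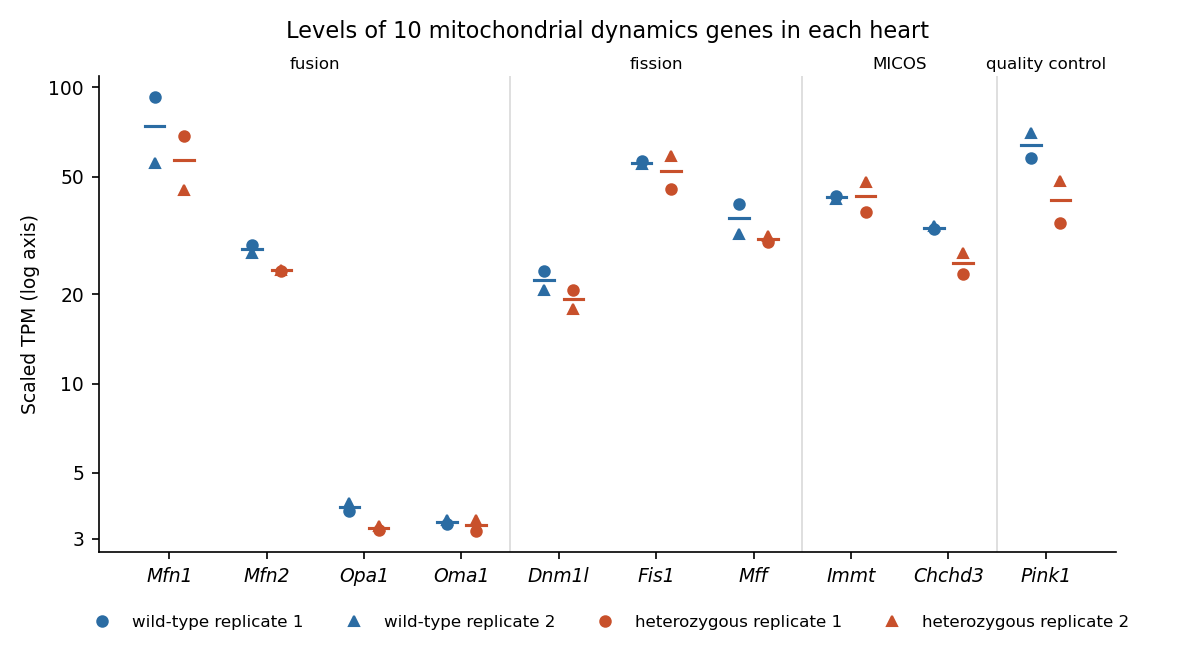
Scaled TPM (log axis) of each of the 10 genes in each heart, with wild-type hearts in blue and heterozygous hearts in orange, circles for replicate 1, triangles for replicate 2 and a bar at the mean of each genotype (n = 2). *Opa1* and *Oma1* lie between 3.19 and 3.97 and the other 8 genes between 17.9 and 92.5.

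Of the genes for outer membrane fusion, *Mfn1* (ENSMUSG00000027668.13, chromosome 3, 32529465 to 32579239 on mm10, the build of all gene positions given) had the widest spread between hearts of one genotype. It stood at 92.5 and 55.7 scaled TPM in wild-type hearts and at 68.5 and 45.0 in heterozygous hearts. The genotypes overlapped, and the wild-type hearts differed from each other by 1.66-fold and the heterozygous hearts by 1.52-fold. The means were 74.1 ± 26.0 and 56.7 ± 16.6 (SD, n = 2 each), so the difference was smaller than the wild-type SD and about as large as the heterozygous SD. The log2 fold change was -0.36 (standard error, SE, 0.31, 95% confidence interval -1.10 to 0.37, adjusted p = 0.633 from limma). It was -0.01 without wild-type replicate 1, -0.07 without heterozygous replicate 2, -0.73 without wild-type replicate 2 and -0.66 without heterozygous replicate 1. The order of the 4 hearts by *Mfn1* was the reverse of their order by the summed atrial markers, and the part of those markers in the *Mfn1* values was not tested.

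*Mfn2* (ENSMUSG00000029020.13, chromosome 4, 147873599 to 147904704), the other mitofusin, varied far less. Its scaled TPM was 29.5 and 27.5 in wild-type and 24.0 and 24.2 in heterozygous hearts. The genotypes were separate, and the means of 28.5 ± 1.37 and 24.1 ± 0.115 (SD, n = 2) differed by more than either SD. Such a difference was found for 5 of the 10 genes (*Mfn2*, *Opa1*, *Dnm1l*, *Chchd3* and *Pink1*). Its share over all tested genes was not computed. The log2 fold change was -0.23 (SE 0.16, interval -0.61 to 0.14) and did not pass (adjusted p = 0.554 from limma).

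The inner membrane fusion gene *Opa1* (ENSMUSG00000038084.16, chromosome 16, 29579334 to 29654884) and its protease gene *Oma1* (ENSMUSG00000035069.3, chromosome 4, 103313812 to 103371868) were the lowest of the 10. *Opa1* had 3.71 and 3.97 scaled TPM in wild-type and 3.22 and 3.30 in heterozygous hearts, with separate genotypes. Its log2 fold change was -0.18 (SE 0.13, interval -0.50 to 0.13, adjusted p = 0.569 from limma). *Oma1* had 3.36 and 3.48 against 3.19 and 3.47, so its genotypes overlapped. The log2 fold change of *Oma1* was -0.03 (SE 0.13, interval -0.34 to 0.29, adjusted p = 0.940), and the interval as a fold ran from 0.788 to 1.22.

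Among the fission genes, *Dnm1l* (ENSMUSG00000022789.15, chromosome 16, 16312230 to 16358959) had 23.9 and 20.7 scaled TPM in wild-type and 20.6 and 17.9 in heterozygous hearts. The genotypes were separate only by the small distance between 20.7 and 20.6. Its log2 fold change was -0.20 (SE 0.17, interval -0.61 to 0.21, adjusted p = 0.638 from limma), and it was -0.10 without wild-type replicate 1 or without heterozygous replicate 2. *Mff* (ENSMUSG00000026150.14, chromosome 1, 82724890 to 82752394) had 40.4 and 31.9 against 30.1 and 31.4, with separate genotypes but a difference between the means, 36.2 ± 6.001 and 30.7 ± 0.932 (SD, n = 2), that was smaller than the wild-type SD. Its log2 fold change was -0.22 (SE 0.18, adjusted p = 0.630) and only -0.06 without wild-type replicate 1. *Fis1* (ENSMUSG00000019054.13, chromosome 5, 136953275 to 136966234), which encodes a tail-anchored outer membrane protein linked to fission, had 56.2 and 55.1 against 45.3 and 58.9. The heterozygous hearts thus lay on both sides of the wild-type hearts. The log2 fold change of *Fis1* was -0.11 (SE 0.19, interval -0.57 to 0.35, adjusted p = 0.838), and it was 0.08 without heterozygous replicate 1.

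The MICOS genes differed from each other in their values. *Immt* (ENSMUSG00000052337.15, chromosome 6, 71831331 to 71877388) had 43.2 and 42.0 scaled TPM in wild-type and 38.1 and 48.0 in heterozygous hearts, with the wild-type hearts lying between the heterozygous ones. Its log2 fold change was 0.01 (SE 0.18, interval -0.44 to 0.45, adjusted p = 0.992 from limma), with a negative sign when TPM were used as deposited (-0.43) or with mt- genes removed (-0.33). *Chchd3* (ENSMUSG00000053768.13, chromosome 6, 32790976 to 33060260) had 33.1 and 34.1 in wild-type and 23.5 and 27.7 in heterozygous hearts. The genotypes were separate, and the difference of the means, 33.6 ± 0.663 and 25.6 ± 2.96 (SD, n = 2), exceeded both SDs. The log2 fold change of *Chchd3* was -0.39 (SE 0.17, interval -0.79 to 0.02), with an unadjusted p of 0.0580 and an adjusted p of 0.413 from limma. It lay between -0.50 and -0.27 with each library left out in turn.

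*Pink1* (ENSMUSG00000028756.12, chromosome 4, 138313409 to 138326307), the mitochondrial quality control kinase gene, had the largest difference of the 10. It stood at 57.7 and 69.9 scaled TPM in wild-type hearts and at 34.9 and 48.5 in heterozygous hearts. Every wild-type value lay above every heterozygous value, and the means of 63.8 ± 8.63 and 41.7 ± 9.59 (SD, n = 2) differed by more than either SD. The log2 fold change was -0.61 (SE 0.22, interval -1.14 to -0.09), which is 0.653-fold with an interval from 0.454 to 0.940. Its unadjusted p was 0.0281 and its adjusted p was 0.372 from limma, so it did not pass. Of the 10036 tested genes, 1.94% had a lower fold change. The value was -0.85 without heterozygous replicate 2 and -0.38 without heterozygous replicate 1, the outer values when each library was left out.

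**Figure D2:**
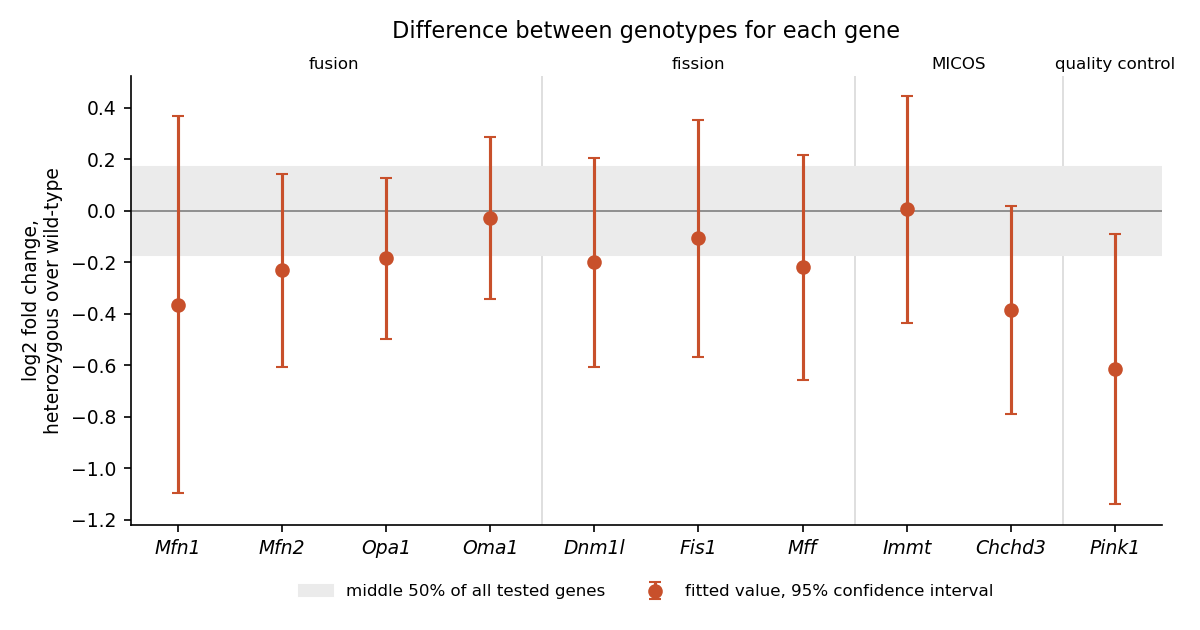
Log2 fold change of heterozygous over wild-type hearts for each of the 10 genes (points, limma fit, n = 2 per genotype) with 95% confidence intervals, beside the middle 50% of all tested genes (grey band). The interval of *Pink1* lies below 0, from -1.14 to -0.09, and the intervals of the other 9 genes include 0.

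In the order of levels over all hearts, *Mfn1* came first, followed by *Fis1*, *Pink1*, *Immt*, *Mff*, *Chchd3*, *Mfn2*, *Dnm1l*, *Opa1* and *Oma1*. Neighbours from *Mfn1* to *Immt* overlapped in at least 1 genotype, as did *Mff* with *Chchd3*, *Chchd3* with *Mfn2*, and *Opa1* with *Oma1*. The steps from *Immt* to *Mff*, from *Mfn2* to *Dnm1l* and from *Dnm1l* to *Opa1* were in the same direction in all 4 hearts without overlap within a genotype. In each library the 8 higher genes lay between the 85.6th and the 97.0th percentile of the tested genes, and *Opa1* and *Oma1* between the 40.0th and the 47.5th. *Mfn1* exceeded *Mfn2* in every heart. No other gene model matched a transcript of the 10 genes at 95% identity or more over 200 bases, and the gene models that overlap them on the genome had at most 0.250 TPM in any library.

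Ratios between genes within a library do not depend on the scaling between libraries. The *Immt* to *Chchd3* ratio was 1.30 and 1.23 in wild-type and 1.62 and 1.73 in heterozygous hearts. The genotypes were separate, with the higher ratio in heterozygous hearts, and the means of 1.27 ± 0.0484 and 1.68 ± 0.0790 (SD, n = 2) differed by 0.40 on the log2 scale (p = 0.333 in a two-sided exact permutation test, which with 2 hearts against 2 cannot give less). The *Opa1* to *Oma1* ratio was 1.11 and 1.14 against 1.008 and 0.952, also with separate genotypes and a log2 difference of -0.20 (exact permutation p = 0.333). The ratio of *Pink1* to the geometric mean of the other 9 genes was 2.40 and 3.21 against 1.78 and 2.41, where wild-type replicate 1 and heterozygous replicate 2 were level at 2.40 and 2.41, a log2 difference of -0.42 (exact permutation p = 0.667). It was -0.22 without wild-type replicate 2, -0.21 without heterozygous replicate 1, -0.63 without wild-type replicate 1 and -0.64 without heterozygous replicate 2.

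The balance of fusion and fission genes overlapped between genotypes. The summed *Mfn1*, *Mfn2* and *Opa1* over the summed *Dnm1l*, *Fis1* and *Mff* was 1.04 and 0.809 in wild-type and 0.998 and 0.670 in heterozygous hearts, so the hearts of one genotype differed more than the genotype means did (log2 difference -0.17, exact permutation p = 0.667). *Mfn1* made up most of the fusion sum, and the ratio changed direction when wild-type replicate 1 or heterozygous replicate 2 was left out. The *Mfn2* to *Mfn1* ratio was 0.319 and 0.495 against 0.351 and 0.538 (log2 difference 0.13, exact permutation p = 0.667). With Benjamini-Hochberg adjustment over the 5 ratios compared, each exact permutation p became 0.667.

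**Figure D3:**
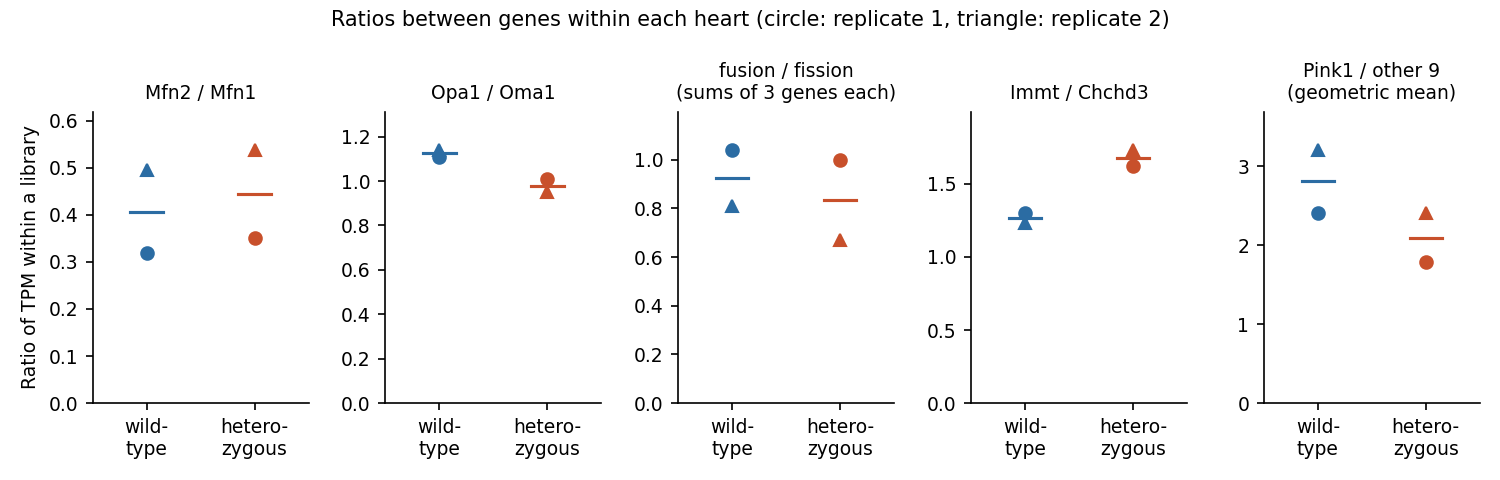
Ratios of TPM within each heart for 5 pairs or groups of genes (vertical axes from 0), with wild-type hearts in blue, heterozygous hearts in orange, circles for replicate 1, triangles for replicate 2 and bars at the means (n = 2). The *Immt* to *Chchd3* ratio is 1.23 to 1.30 in wild-type and 1.62 to 1.73 in heterozygous hearts, and the fusion to fission ratio overlaps.

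The choice of scaling sets the level against which the genes are compared. With TPM as deposited, all 10 genes were lower in each heterozygous heart than in each wild-type heart, but so were 67.8% of all tested genes, and the median log2 fold change was -0.64 for the 10 genes and -0.35 for all. With mt- genes removed, all 10 genes were again lower in this way, as were 56.1% of all genes, and the medians were -0.54 and -0.29. With their nuclear copies removed as well, 4 of the 10 were separate, against 17.1% of all genes, with medians of -0.16 and 0.05. The fitted value was negative for 8 of the 10 under this last scaling, when *Oma1* was at 0.025. The minimum mean TPM was applied again after each removal, so the sets of all genes differ between these scalings. They held 10036 genes with TPM as deposited, 12693 with mt- genes removed and 14116 with the copies removed as well. Relative to the median of all genes, the median of the 10 lay between -0.29 and -0.21 under each scaling tried, and *Pink1* was the lowest of the 10 each time.

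**Figure D4:**
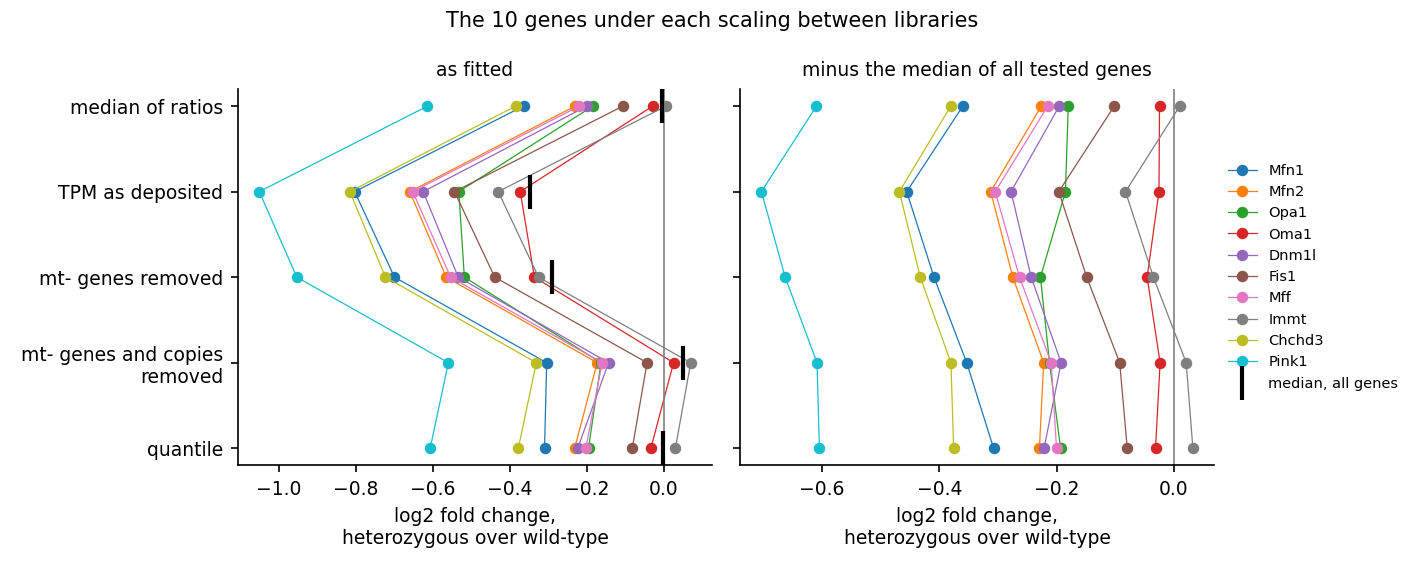
Log2 fold change of each of the 10 genes under 5 ways of scaling the libraries, as fitted (left, with the median of all tested genes as a black bar) and after subtraction of that median (right). *Pink1* is the lowest under each, and the median of the 10 genes relative to all genes stays between -0.29 and -0.21.

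Another 71 genes that act with these 10 were grouped into 6 lists, and 66 of them were tested. These lists too were chosen with earlier results of these data known. Of the 66 tested genes, 0 were called, 9 (13.6%) were lower and 2 (3.0%) higher at an unadjusted p under 0.05, against 5.71% and 6.49% of all tested genes. The heterozygous hearts were separate from the wild-type hearts and lower for 30 (45.5%) and higher for 9 (13.6%), against 23.3% and 23.7% of all tested genes. The smallest adjusted p was 0.290 from limma, and the median log2 fold change was -0.13. For 14 tested mitophagy genes of 17 the fitted value was negative, against 50.7% of all tested genes, and 9 were lower with separate genotypes, against 23.3%. The list median was -0.19. *Vcp*, an ATPase that extracts ubiquitinated proteins from the outer membrane, had 21.8 and 21.9 scaled TPM in wild-type and 12.3 and 13.8 in heterozygous hearts, a log2 fold change of -0.71 (SE 0.15, adjusted p = 0.290). *Gabarapl1*, which encodes a protein of the autophagosome membrane, had 7.15 and 8.86 against 4.39 and 5.98 (-0.55, adjusted p = 0.360). The mitophagy receptor gene *Bcl2l13* had 1.195 and 2.48 against 0.893 and 0.908 (-0.54, adjusted p = 0.408), with wild-type hearts that differed by more than the means did.

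The list of MICOS, outer membrane assembly and cristae genes had 14 tested members, of which 12 had a negative fitted value, against 50.7% of all tested genes, and 8 lay lower with separate genotypes, against 23.3% (list median -0.13). The other 2 had a positive value, and 1 of the 14 lay higher with separate genotypes, against 23.7% of all tested genes. The 3 with the smallest p were *Ghitm*, *Letm1* and *Chchd6*. *Ghitm*, an inner membrane protein gene tied to cristae shape, had 19.8 and 21.8 scaled TPM in wild-type and 12.3 and 13.7 in heterozygous hearts (log2 fold change -0.64, SE 0.16, adjusted p = 0.319 from limma). *Letm1*, which encodes an inner membrane protein of cation exchange, had 6.08 and 6.29 against 3.51 and 4.56 (-0.52, adjusted p = 0.341). *Chchd6*, a MICOS subunit gene related to *Chchd3*, had 2.36 and 2.42 against 1.26 and 1.80 (-0.43, adjusted p = 0.372). None of the 3 passed the test. Each had separate genotypes with lower heterozygous values, which is no further result, since they were picked by p in these same hearts.

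In each of the other lists, the 3 genes with the smallest p included both directions. Fitted values were negative for 4 of 7 further fission genes (median -0.04) and 4 of 9 cardiolipin genes (0.01). They were negative for 4 of 6 transport genes (-0.16), against 50.7% of all tested genes. Of 13 tested genes for fusion and OPA1 processing, 6 had a negative and 7 a positive fitted value (median 0.01). The ubiquitin ligase gene *Marchf5* had 9.61 and 10.2 scaled TPM in wild-type and 12.3 and 12.8 in heterozygous hearts (log2 fold change 0.32, adjusted p = 0.426 from limma), while the inner membrane protease gene *Afg3l2* (-0.31, adjusted p = 0.432) and *Stoml2* (-0.37, adjusted p = 0.451), which encodes a cardiolipin-binding scaffold protein, were lower in both heterozygous hearts. Of 7 further fission genes, *Mtfp1* had the smallest p, with 18.3 and 17.3 against 12.1 and 13.5 (-0.44, adjusted p = 0.362), followed by *Inf2* (-0.31, adjusted p = 0.432) and *Mtfr1l* (0.24, adjusted p = 0.529). Among 9 genes for cardiolipin, the lipid of the inner membrane, *Ptpmt1* had 7.35 and 6.72 against 9.42 and 9.16 (0.36, adjusted p = 0.394), and *Hadha* (-0.72, adjusted p = 0.302) and *Lclat1* (-0.29, adjusted p = 0.426) lay lower. Of 6 transport genes, the myosin gene *Myo19* had 1.88 and 1.74 against 2.67 and 2.71 (0.39, adjusted p = 0.354), and the adaptor gene *Trak2* (-0.47, adjusted p = 0.394) and the GTPase gene *Rhot2* (-0.18, adjusted p = 0.647) lay lower.

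**Figure D5:**
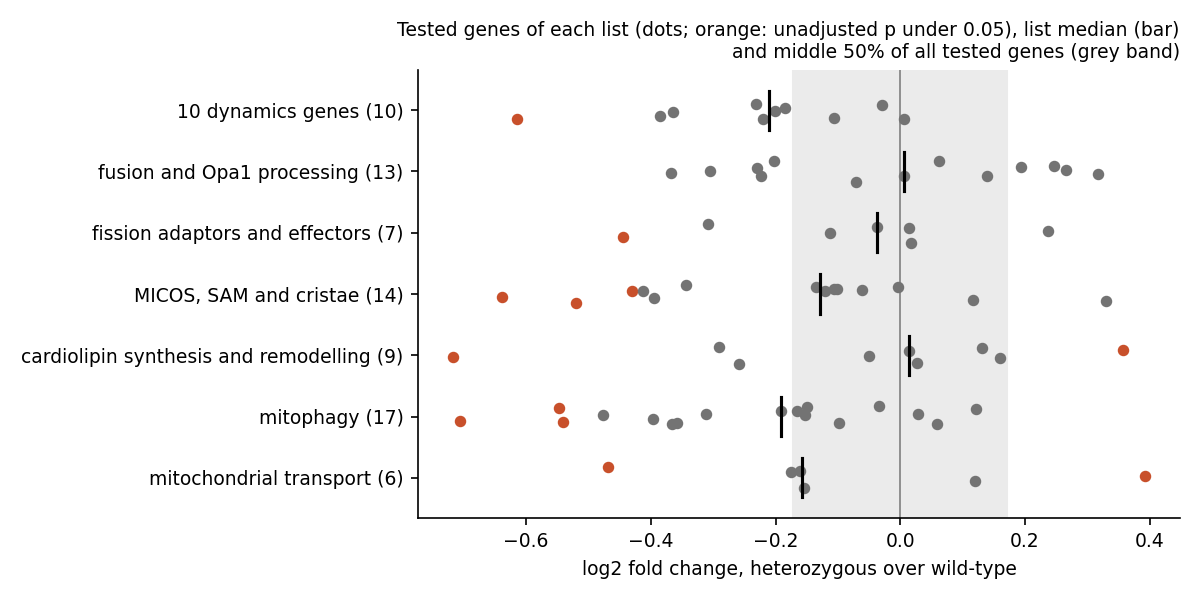
Log2 fold change of heterozygous over wild-type hearts (horizontal axis) for every tested gene of the 10 dynamics genes and of 6 related lists, with a black bar at each list median, orange dots for an unadjusted p under 0.05 and a grey band for the middle 50% of all tested genes. The medians run from -0.21 for the 10 genes and -0.19 for mitophagy to 0.01 for fusion and OPA1 processing and for cardiolipin.

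The genes whose values over the 4 hearts were most like those of *Pink1*, by the root mean square difference of log2 values centred on their mean, were *Ccl21a* (0.0168), *Ndufa9* (0.0175) and *Uqcrfs1* (0.0203). *Ndufa9*, a subunit gene of respiratory complex I, had 90.1 and 107.8 scaled TPM in wild-type and 55.7 and 74.7 in heterozygous hearts. *Uqcrfs1*, which encodes the iron-sulfur protein of complex III, had 142.9 and 169.5 against 84.4 and 120.8. The chemokine gene *Ccl21a* belongs to a family of near-identical copies, and its reads may come from any of them. With 4 hearts such a likeness is a description of these libraries.

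Markers of other cell types are given beside these values. The 7 fibroblast markers summed to 57.8 and 81.3 scaled TPM in wild-type and 54.6 and 58.4 in heterozygous hearts, of which 2 lay lower with separate genotypes, as did 23.3% of all tested genes, and the 6 endothelial markers to 62.7 and 70.9 against 61.7 and 67.6, of which 3 did. The 5 mural markers summed to 67.9 and 60.5 against 48.2 and 60.3, and 4 tested macrophage and leukocyte markers to 17.0 and 16.6 against 13.9 and 19.3. None of the 4 adipocyte markers reached the level for testing. The 5 erythroid markers summed to 930 and 987 in wild-type hearts and to 965 and 2120 in heterozygous hearts, so heterozygous replicate 2 stood apart, and all 5 had a positive fitted value, as had all 4 atrial markers. Of the 8 cardiomyocyte markers, 3 lay lower with separate genotypes, against the same 23.3%, and the sums were 22777 and 21378 against 18751 and 22221 scaled TPM. The fitted value was negative for 6 of these 8, against 50.7% of all tested genes. Their median was -0.19, beside -0.21 for the 10 genes. It was negative for 5 of 6 endothelial (median -0.13), 5 of 7 fibroblast (-0.13) and 4 of 5 mural markers (-0.14). Of the 4 tested macrophage and leukocyte markers, 3 were negative (-0.03). The medians were 0.53 for erythroid and 0.83 for atrial markers. The part of these markers in the values of the 10 genes was not tested.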

How the data were processed

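Mouse heart RNA was purified with mRNA capture beads and sequenced as 4 libraries. The deposited values are TPM per gene, rounded to 2 decimals, which the authors obtained by adapter trimming (Trim Galore, 0.6.10), alignment to the mm10 build (STAR, 2.7.4a) and estimation per gene (RSEM, 1.2.28). The annotation release is not given in the sources used here. TPM keep no depth, so no count model was fitted, and the authors' DESeq2 test was not repeated. Groups follow the labels.

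Scaling factors (median of ratios) were computed over genes above 0 in every library and at a mean TPM of 1 or more. Scaled values plus a pseudocount of 1 were put on the log2 scale. Of all genes, 10036 passed the same minimum and entered limma (3.58.1; lmFit, eBayes with trend, two-sided) in R (4.3.3), without a block. Ratios were compared by exact permutation. The scripts were tested on simulated data. Copies of genes were sought with BLAST+ (2.17.0) at 95% identity, over 80% of the length for copies of mt- genes. By identifier, 55141 genes matched GENCODE M21 for mm10, from which coordinates are given. Promoters are from RefSeq (GRCm38.p6), and all 10 genes matched. Tables used Python (3.11.15) and pandas (2.3.3).

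The members and lists were chosen with earlier results of these data known. The rule named the 10 genes, *Ctcf*, the 3 genes of each related list with the smallest p and the 3 genes most like the member with the largest change. The 3 promoters shown and the comparison of *Mfn1* with the atrial markers were chosen after their values were seen. Alternatives were other pseudocounts (0.1 and 5), no filter or a minimum mean TPM of 5, other scalings, eBayes without trend, the replicate number as a block, other thresholds and each library left out. Scaling factors over all genes above 0 in every library were added after seeing the data.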

Additional observations from a re-analysis of the deposited data

How the results depend on the processing

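For 0 of the 10 genes was the call of no difference changed by any alternative, with a smallest adjusted p of 0.0891 (*Pink1*, TPM as deposited) in limma. Of 148 refitted values of the 10 genes, 135 were negative. All are refits of the same 4 libraries, so they are not independent of each other. They include TPM as deposited, where 90.6% of all genes were negative, and mt- genes removed, where 82.5% were. *Immt* changed sign, being negative with TPM as deposited (-0.43), with mt- genes removed (-0.33) and with scaling factors over all genes above 0 (-0.0023, chosen after seeing the data), and between -0.16 and 0.17 with one library left out. *Oma1* changed sign as well, at 0.025 with mt- genes and their nuclear copies removed and between -0.0757 and 0.0188 with one library left out. *Fis1* lay between -0.293 and 0.0823 with one library left out. The median of the 10 genes was -0.64 in the TPM as deposited and -0.54 after removal of mt- genes, and between -0.29 and -0.10 with one library left out, the latter without wild-type replicate 1. The count of the 10 genes with both heterozygous hearts lower was 10 in the TPM as deposited, against 67.8% of all genes. It was 10 after removal of mt- genes, against 56.1%, and 4 with their nuclear copies removed as well, against 17.1%. At a mean TPM of at least 5 the count was 5, against 23.9%. The *Mfn2* to *Mfn1* ratio ranged from -0.19 to 0.45 and the fusion to fission ratio from -0.455 to 0.12 (log2 differences) with one library left out. Over all genes, 2 were called, against 4 at a pseudocount of 0.1, 0 without a filter (2134 with an unadjusted p under 0.05), 13 with TPM as deposited, 8 with mt- genes removed, 5 with their copies removed as well, 5 at an adjusted p under 0.1, and between 10 and 25 with one library left out, where the lone library is assumed to vary like the others. The cause of these shifts was not tested. *Opa1* and *Oma1* were not tested at a mean TPM of at least 5. In the labels, same-numbered libraries share only a number, and whether they share anything else is not stated. Across genes, the correlation of their deviations from the mean of each genotype was 0.101. With the replicate block 10 genes were called (7 lower, 3 higher) and 0 of the 10 genes, with *Pink1* at an adjusted p of 0.259. The ratios could reach an exact p of no less than 0.5 over 2 pairs. Depth is unknown, so counting error cannot be separated from other spread.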
